A study of Mus musculus with 8 samples.

Results

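The genes described here are the fibril-forming and other collagens of 3T3-L1 mouse preadipocytes, leaving out the basement membrane family, collagen IV. They were taken from the deposited table by symbol, as every row named Col, a type number, a and a chain number whose type was not IV, which gave 37 of 22798 genes. Of these, 32 averaged at least 10 across the 8 libraries and were tested, and 5 were below it (Col9a1, Col13a1, Col22a1, Col24a1 and Col25a1). 3T3-L1 is a fibroblast-like line, labelled as of Swiss albino strain, that turns into fat cells when given hormones. The study followed it through 4 culture stages with 2 RNA-seq libraries each: exponential proliferation, quiescence (48 hours at confluence, no hormones), clonal expansion (10 hours after an adipogenic cocktail) and differentiation (6 days after it). The cocktail, labelled as insulin at 5 µg/µl, dexamethasone at 1 µM and isobutylmethylxanthine at 0.25 mM, was given for 48 hours and followed by the same dose of insulin alone, and the medium held 10% fetal bovine serum. All libraries come from 1 cell line grown in a dish without other tissue cells.

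Collagens are secreted proteins whose chains wind around each other into a triple helix rich in glycine and proline. Fibrillar collagens (types I, II, III, V, XI, XXIV and XXVII) pack side by side into the fibrils that give connective tissue its strength, and types V and XI set how wide these fibrils grow. Type VI makes beaded filaments around cells, fibril-associated collagens decorate the fibrils, multiplexins (XV and XVIII) sit at basement membranes, and a few types cross the cell membrane. Preadipocytes lay down a fibrillar matrix, and fat cells in tissue are each wrapped in a basement membrane with type VI collagen beside it.

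The values are pseudo-counts, read counts put by the authors on one library scale. Their sums per library ranged from 122413485 to 127369893 before the cocktail and from 146570940 to 151529059.9 after it. The 9 fat cell markers, all above a mean of 10, summed to between 62033 and 147589 pseudo-counts in the 6 libraries before differentiation and to 4986470.2 and 5289299 in the differentiated ones. The 7 fibroblast or preadipocyte markers summed to between 999876 and 1611011 before differentiation and to 333621 and 339615 in it. The 8 cartilage and bone markers, 5 of them above a mean of 10, summed to between 30871 and 31159 in growing cells. In differentiated cells they summed to 5374 and 5636. Most of this was Sox9 (at most 18893) and Runx2 (at most 13173), which are transcription factors. Acan and Matn1, which encode cartilage matrix, were at or below 3.78 in every library. Comp, which encodes cartilage matrix too, had 305 and 221 in growing cells and 555 and 506 in quiescent cells. It had 46.0 and 49.7 during clonal expansion, and 650 and 534 in differentiated cells. Ibsp (51.5 and 51.1) and Sp7 (62.5 and 58.9) were low and highest in differentiated cells. The 5 muscle markers were mostly Des, an intermediate filament, at 5571 and 4992 in differentiated cells, with Myod1, Myog and Ckm at or below 2.06. The 5 epithelial markers summed to at most 21.5 before differentiation and to 1821 and 860.3 after it, mostly Krt18, a keratin, with Epcam at 0 in every library. The 4 endothelial markers, 3 of them above a mean of 10, summed to between 134 and 297, with Pecam1 and Cdh5 the highest, and the 5 macrophage and blood markers, 2 of them above it, to between 333 and 609, mostly Cd68 and Csf1r, with Ptprc at or below 2.73. The 4 markers of dividing cells summed to between 79599 and 113383 in growing cells and 34716 and 36708 in quiescent cells. They summed to between 78928 and 89071 during clonal expansion, and 15904 and 18952 in differentiated cells. The higher sum at clonal expansion was mostly Top2a, at 62427 and 56193 against 14975 and 14442 at quiescence. Cdk1 was higher too (9560 and 8588 against 5554 and 4232), and Ccnb1 a little higher (2455 and 1825 against 2052 and 1505). Mki67 stayed at its quiescent level (14629 and 12322 against 14127 and 14537), below growing cells (37134 and 51212). Most of these lists move with the stages compared below, and their part in the results was not tested. The 2 libraries of a stage differed over the tested collagens by a median absolute log2 difference of 0.17 in growing and 0.13 in quiescent cells. It was 0.20 in expanding and 0.26 in differentiated cells, against 0.15, 0.21, 0.13 and 0.13 over all tested genes. Of the 32 tested collagens, 25, 19, 22 and 12 were higher in library 1 of these stages in turn. Their signed medians were 0.14, 0.04, 0.10 and -0.19, against 0.00, 0.05, 0.03 and 0.01 over all tested genes. Calls of single collagens may therefore not be independent. The labels number the 2 libraries as experiments and do not say that they came from separate cultures, so p-values measure only the spread between libraries, which may be technical.

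Collagen messages outside type IV made up 3.85% and 3.39% of all pseudo-counts in growing cells, 6.43% and 6.26% in quiescent cells, 3.73% and 3.52% during clonal expansion, and 3.12% and 3.37% in differentiated cells. Both quiescent libraries lay above all others. In both of them the 3 genes with the highest values of all 22798 were collagens, Col1a2, Col3a1 and Col1a1 in that order, whereas Col1a1 ranked 28 and 24 in the differentiated libraries and Col6a3 3 and 4. Its makeup changed as well. Fibrillar chains were 75.2% and 75.5% of it in growing cells, 81.5% and 79.2% in quiescent cells, 64.3% and 62.0% during clonal expansion, and 46.8% and 49.9% in differentiated cells. The type VI chains took 18.9% and 18.4%, then 15.6% and 17%, then 32.5% and 34.2%, and at last 49.8% and 47.2%. At differentiation the beaded filament genes thus held about as much of the collagen message as the fibrillar genes, and neither class overlapped its earlier values. These shares depend on transcript length as well as on the number of molecules, and in bulk RNA fewer cells of a type and less RNA per cell cannot be told apart.

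**Figure D1:**
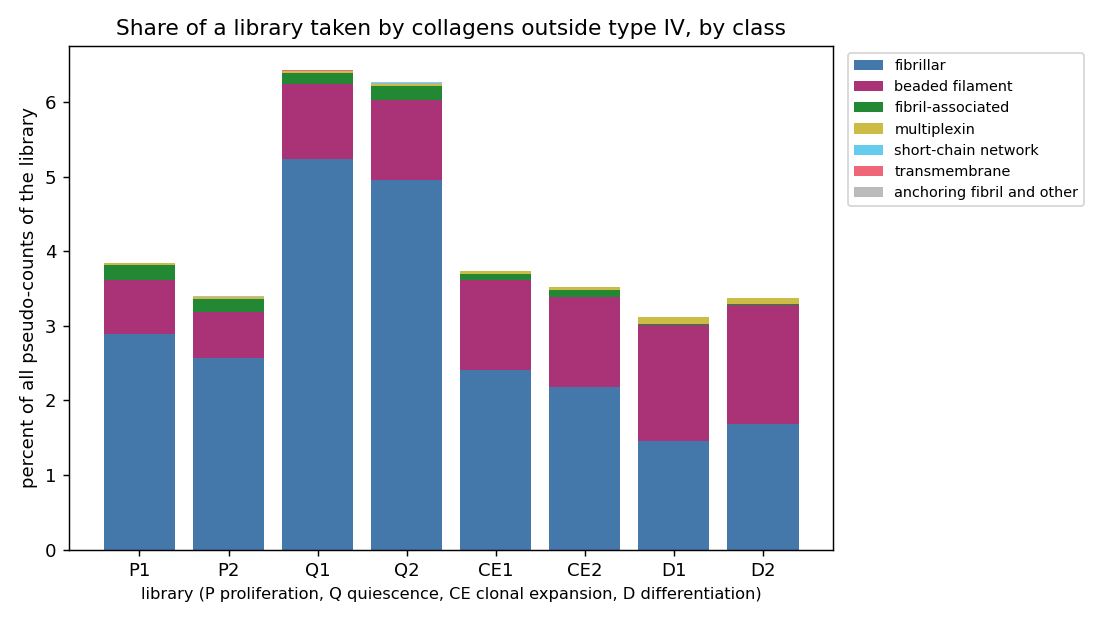
Percent of each library's pseudo-counts (y axis) taken by the 37 collagens outside type IV, stacked by class, in the 8 libraries (x axis). The quiescent bars are the tallest, at 6.43% and 6.26%, and the beaded filament part is widest in the differentiated libraries.

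The stages were compared by a fit of log2(value + 1) over all 8 libraries, and log2 fold changes (log2FC) are given with their standard error (± in parentheses) or alone, while ± beside a mean pseudo-count is the SD of n = 2 libraries. At quiescence against proliferation, 17 of the 32 tested collagens were higher and 4 lower, where 11.9% and 11.8% of the 14647 tested genes were called in each direction (23.7% in all). Their median log2FC was 0.54, against -0.01 over all tested genes, and 13 of the 32 had moved at least 2-fold, where 7.93% of all genes were called with such a change. At clonal expansion against quiescence, 5 were higher and 20 lower, beside 34.4% of all genes in each direction (68.8% in all), with a median of -0.9999 against -0.01, and 17 of the 32 had moved at least 2-fold (34.3% of all genes). At differentiation against clonal expansion, 10 were higher and 12 lower, beside 36.8% and 36.2% (73% in all). That share of collagens called, 68.8%, and the 12 of 32 that moved at least 2-fold (41.8% of all genes) are near or below the background and say nothing particular of them. At differentiation against quiescence, 9 were higher and 21 lower, beside 33.4% and 32.9% (66.3% in all), with a median of -1.09 against 0.01, and 25 of the 32 had moved at least 2-fold where 34.9% of all genes were called with such a change. The quiescent libraries enter 3 of these comparisons and the clonal expansion and differentiated libraries 2 each, so the counts are not independent. With the same total per library the median of all genes moved to -0.24 at clonal expansion and -0.23 at differentiation against quiescence, and of all calls 37.4% and 37.5% were then higher in place of 50% and 50.3%.

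Without proliferation 2 the first comparison gave 10 higher and 1 lower. The 5 collagens higher at clonal expansion were 3 without clonal expansion 2, with the same total per library or with quantile normalization. With no filter on low values, which leaves each log2FC as it is and changes its test, 31 of the 98 collagen calls were lost. In quiescence against proliferation these were Col1a1, Col1a2, Col3a1, Col6a1, Col6a2, Col6a3, Col6a6, Col7a1, Col8a1, Col9a2, Col10a1, Col19a1 and Col20a1, which left 8 of the 17 rises and none of the 4 falls (5 falls at an unadjusted p under 0.05, limma). In clonal expansion against quiescence they were Col1a1, Col1a2, Col3a1, Col6a3 and Col11a2, and in differentiation against clonal expansion Col1a1, Col1a2, Col6a3, Col8a1, Col11a1, Col14a1 and Col27a1, which left 7 of the 12 falls. In differentiation against quiescence they were Col1a2, Col3a1, Col5a1, Col6a2, Col6a3 and Col6a6. Col9a2, Col10a1 and Col19a1 were below 10 in at least 1 stage and passed the filter through stages where they were high. The counts above include them. With a mean of at least 50 required, which leaves these genes out, 27 collagens were tested, and 16 rose and 2 fell from proliferation to quiescence. With that filter 5 were higher and 17 lower at clonal expansion against quiescence. At differentiation 9 were higher and 12 lower than at clonal expansion, and 8 higher and 17 lower than at quiescence.

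**Figure D2:**
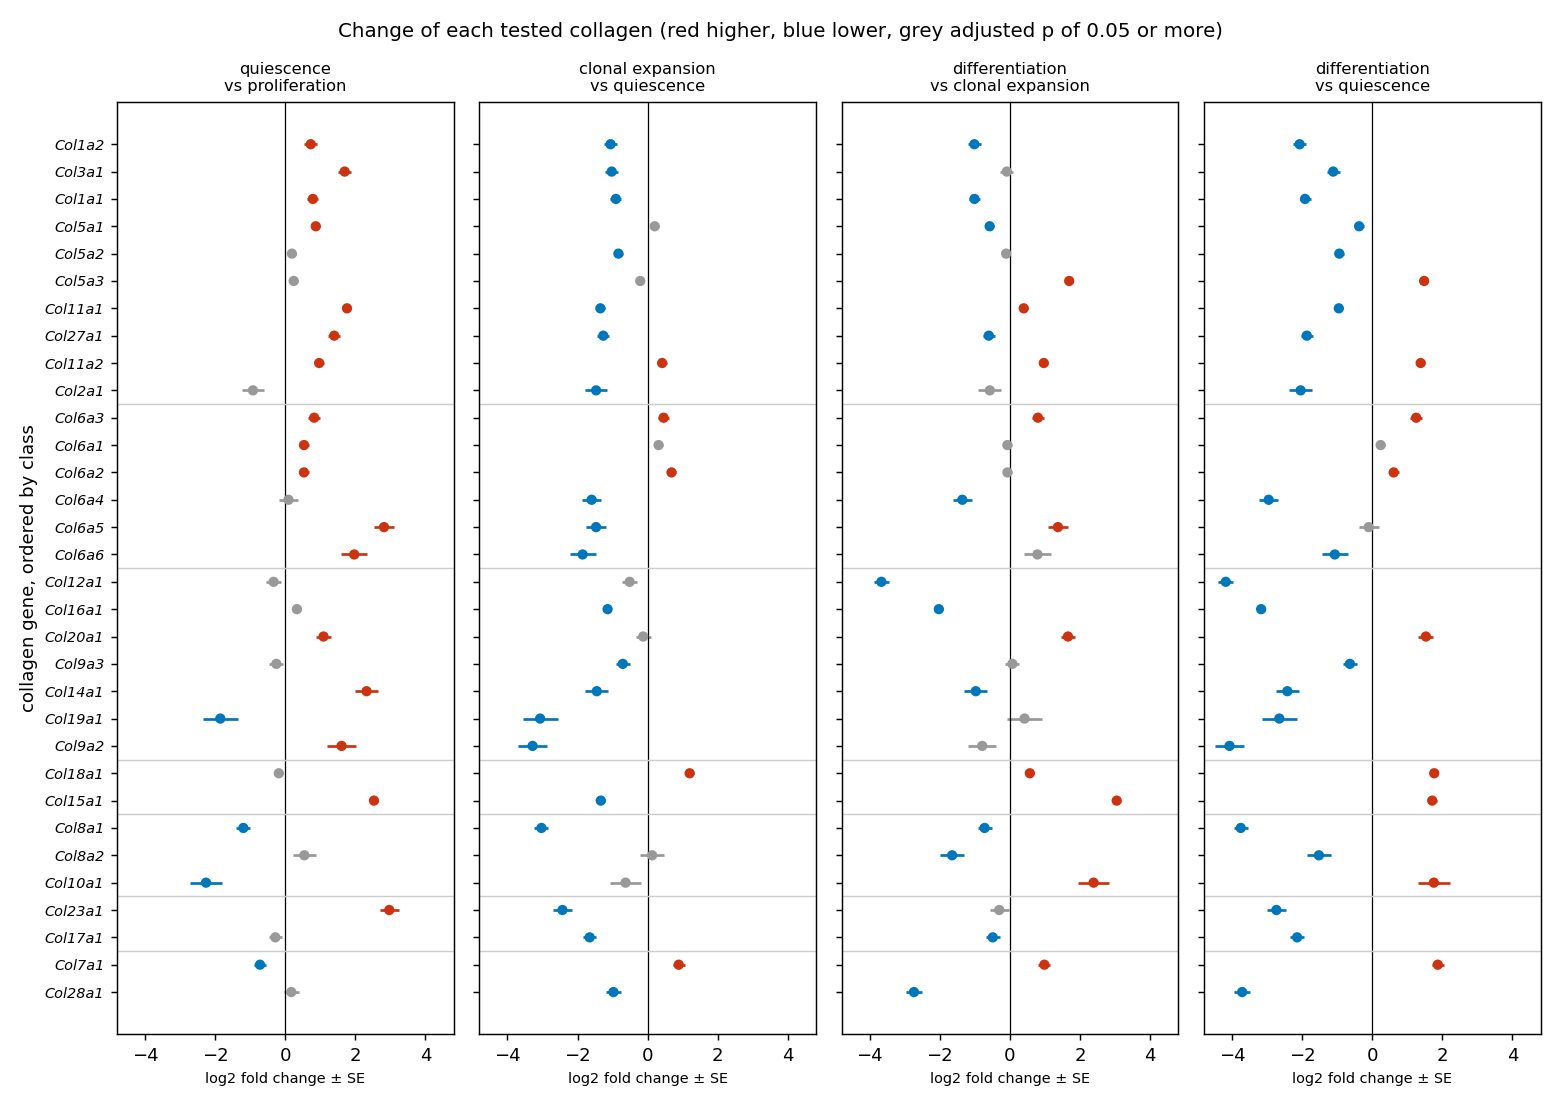
Log2 fold change (x axis, bars are ± 1 SE) of the 32 tested collagens (y axis, by class) in the 4 comparisons of stages, red where higher and blue where lower with an adjusted p under 0.05. At clonal expansion against quiescence 20 of 32 points are blue, and at differentiation against quiescence 21.

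**Figure D3:**
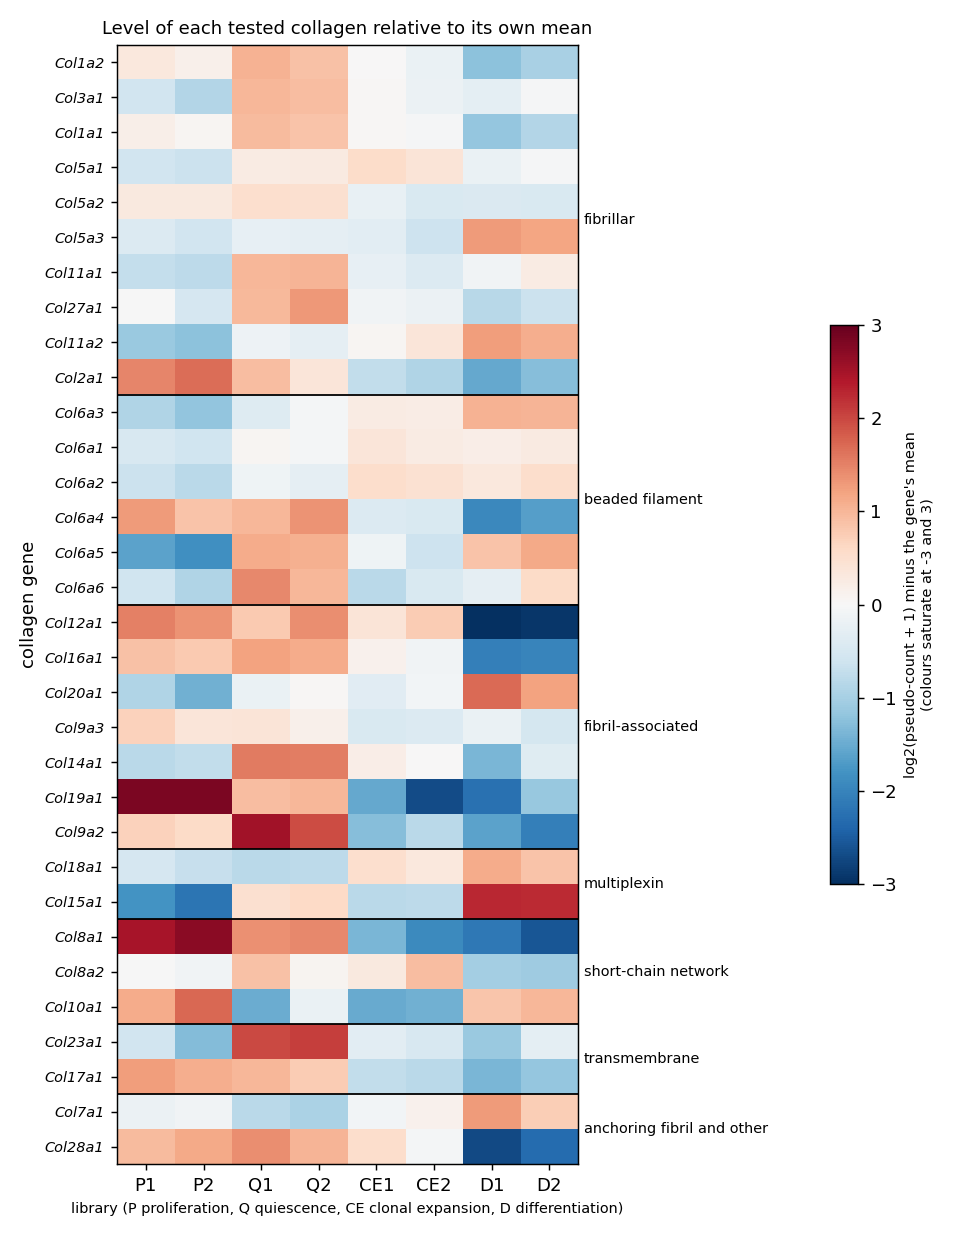
Level of each tested collagen (rows, by class) in the 8 libraries (columns), as log2(pseudo-count + 1) minus the gene's mean over libraries, colours saturating at -3 and 3. Rows such as Col12a1, Col16a1 and Col28a1 are lowest in both differentiated libraries, and Col15a1, Col5a3 and Col6a3 highest there.

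Of the 10 fibrillar genes tested, 7 were higher at quiescence than at proliferation, 7 were lower and 1 higher at clonal expansion than at quiescence, and 8 were lower and 2 higher at differentiation than at quiescence. Over all tested genes, 11.9% were higher in the first of these comparisons, 34.4% lower in the second and 32.9% lower in the third. Type I and type III collagen, the bulk of ordinary fibrils, were highest at quiescence and lower again at differentiation. Col1a1 (gene ID 12842, chromosome 11, 94797584 to 94813170 in mm9), one chain of type I, had 815729 and 749172 pseudo-counts in growing cells, 1397193 and 1301607 in quiescent cells, 736184 and 704238 during clonal expansion, and 325354 and 391835 in differentiated cells. Col1a2 (gene ID 12843, chromosome 6, 4455697 to 4491543 in mm9), its partner chain, had 1617082 and 1462479 pseudo-counts in growing cells, 2680942 and 2418788 in quiescent cells, 1324828 and 1130844 during clonal expansion, and 556287 and 659899.7 in differentiated cells. Both quiescent libraries were above, and both differentiated libraries below, every other library in each gene. The rises from proliferation to quiescence were 0.79 (± 0.16, adjusted p = 0.00602) for Col1a1 and 0.73 (± 0.18, adjusted p = 0.017) for Col1a2 on the log2 scale. On the same scale, at clonal expansion they had changed from quiescence by -0.91 and -1.06, and by differentiation by -1.92 and -2.07 (adjusted p = 2.4e-06 and 3.91e-06).

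Col3a1 (gene ID 12825, chromosome 1, 45368383 to 45406551 in mm9), the chain of type III, which forms fine fibrils in pliable tissues, was also highest at quiescence. It had 665831 and 538742 pseudo-counts in growing cells, 1975773 and 1899541 in quiescent cells, 1028242 and 881754 during clonal expansion, and 817290.1 and 980873 in differentiated cells. The quiescent libraries again stood above all others, but the differentiated libraries were above those of proliferation and overlapped those of clonal expansion. Col3a1 rose at quiescence (log2FC 1.69 ± 0.18, adjusted p = 0.00027), fell at clonal expansion (log2FC -1.02, adjusted p = 0.000611), and was not called between clonal expansion and differentiation. Other settings ended some calls, given here with the log2FC found there. Col1a1 (0.16 with quantile normalization, 0.79 with only the 2 stages compared in the fit, 0.73 without proliferation 2) and Col1a2 (0.00 with quantile normalization, 0.73 with only the 2 stages compared in the fit, 0.66 without proliferation 2, 0.65 without quiescence 1) lost their calls in quiescence against proliferation. Col1a2 was the gene with the highest value in every proliferating and quiescent library, so quantile normalization gives it the same value in both stages by construction. Col1a1 ranked 4 in both proliferating and 3 in both quiescent libraries, so its change with that normalization also follows from its rank.

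Type V collagen starts fibrils and is buried in their core, and its 3 chains had their highest stage means at different stages. Col5a1 (gene ID 12831, chromosome 2, 27741945 to 27895030 in mm9) had 149943 and 142602 pseudo-counts in growing cells, 266334 and 268046 in quiescent cells, 325845 and 290281 during clonal expansion, and 193617 and 219252 in differentiated cells. Its highest libraries were those of clonal expansion, but it was not called between quiescence and clonal expansion. As a percent of all pseudo-counts, clonal expansion (0.215% and 0.198%) overlapped quiescence (0.209% and 0.213%). Col5a1 rose at quiescence (log2FC 0.87 ± 0.13, adjusted p = 0.00104). It fell between clonal expansion and differentiation (log2FC -0.58, adjusted p = 0.00193), ending below quiescence (log2FC -0.37, adjusted p = 0.023). Col5a2 (gene ID 12832, chromosome 1, 45431176 to 45560127 in mm9) had 240345 and 240167 pseudo-counts in growing cells, 276213 and 271386 in quiescent cells, 167555 and 140949.7 during clonal expansion, and 144318 and 141017 in differentiated cells. It was not called between proliferation and quiescence and fell at clonal expansion (log2FC -0.83 ± 0.12, adjusted p = 0.000181). Between clonal expansion and differentiation it was not called, and the libraries overlapped. Col5a3 (gene ID 53867, chromosome 9, 20574494 to 20619478 in mm9), the chain least often part of type V molecules, had 33561 and 29843 pseudo-counts in growing cells, 37706 and 37055 in quiescent cells, 35765 and 29180.0 during clonal expansion, and 107534 and 101110.3 in differentiated cells. Its 6 earlier libraries lay between 29180.0 and 37706, and the differentiated ones were at least 2.68 times the highest of these (log2FC 1.69 ± 0.12, adjusted p = 7.33e-07 against clonal expansion). Col5a1 (-0.32 with the length trend removed, -0.37 with only the 2 stages compared in the fit or without quiescence 2, -0.29 without differentiation 1) lost its call in differentiation against quiescence.

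The other fibrillar chains are those of cartilage-type fibrils and of the minor types XXIV and XXVII. Col11a1 (gene ID 12814, chromosome 3, 113733458 to 113923244 in mm9), which like Col5a1 limits fibril width, had 7018 and 6688 pseudo-counts in growing cells, 23039 and 23394 in quiescent cells, 9662 and 8613 during clonal expansion, and 10591 and 13559.8 in differentiated cells. It peaked in both quiescent libraries (log2FC 1.76 ± 0.12, adjusted p = 2.69e-05 against proliferation) and fell at clonal expansion (log2FC -1.35, adjusted p = 7.88e-06), with a smaller rise at differentiation (log2FC 0.39). Its partner Col11a2 went up from stage to stage, with 1342 and 1229 pseudo-counts in growing cells, 2612 and 2413 in quiescent cells, 3009 and 3723 during clonal expansion, and 6889.7 and 6209.8 in differentiated cells. No library of one stage overlapped those of the next for Col11a2, and its steps at quiescence and at differentiation were alike (log2FC 0.97 against proliferation and 0.97 against clonal expansion). Col27a1, a chain of cartilage and growing bone, had 7489 and 5282 pseudo-counts in growing cells, 14703 and 18626 in quiescent cells, 7061 and 6722 during clonal expansion, and 4233 and 4859 in differentiated cells, a peak at quiescence (log2FC 1.40 ± 0.17, adjusted p = 0.00045). Col2a1, the main collagen of cartilage, was low throughout, with 80.1 and 92.7 pseudo-counts in growing cells, 54.98 and 36.8 in quiescent cells, 16.5 and 14.7 during clonal expansion, and 9.21 and 11.2 in differentiated cells. Each stage lay below the one before it, and it was lower at clonal expansion than at quiescence (log2FC -1.47, adjusted p = 0.00241). Col24a1 was below the filter. Col11a2 (0.18 with the same total per library, 0.36 without quiescence 2, 0.26 without clonal expansion 2) lost its call in clonal expansion against quiescence. Col11a1 (0.31 without clonal expansion 2, 0.22 without differentiation 2) and Col27a1 (-0.50 without differentiation 1) lost their calls in differentiation against clonal expansion.

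To show the start regions of chains that went opposite ways, the 250 bases before the annotated start are given for Col1a2 (chr6:4505368-4505617 on the plus strand) and Col3a1 (chr1:45311288-45311537 on the plus strand), both lower in differentiated than in quiescent cells, and for Col5a3 (chr9:20815068-20815317 on the minus strand) and Col6a3 (chr1:90843972-90844221 on the minus strand), both highest at differentiation. They are RefSeq sequences of GRCm38.p6, 5′ to 3′ in the direction of the gene, with capitals marking 3 motifs on either strand. These were the CCAAT box, the GC box bound by Sp1, searched as GGGCGG, and the TATA box, searched as TATAAA. No motif match overlapped another in these windows.
Col1a2: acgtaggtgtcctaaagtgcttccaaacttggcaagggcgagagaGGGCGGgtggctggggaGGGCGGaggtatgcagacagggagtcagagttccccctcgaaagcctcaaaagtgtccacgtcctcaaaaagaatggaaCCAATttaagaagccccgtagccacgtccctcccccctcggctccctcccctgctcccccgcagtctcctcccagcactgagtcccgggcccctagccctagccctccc
Col3a1: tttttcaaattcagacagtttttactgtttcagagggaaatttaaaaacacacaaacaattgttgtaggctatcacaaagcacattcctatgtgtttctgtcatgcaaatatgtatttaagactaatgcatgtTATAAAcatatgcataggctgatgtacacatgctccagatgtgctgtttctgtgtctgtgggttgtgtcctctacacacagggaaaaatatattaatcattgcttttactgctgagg
Col5a3: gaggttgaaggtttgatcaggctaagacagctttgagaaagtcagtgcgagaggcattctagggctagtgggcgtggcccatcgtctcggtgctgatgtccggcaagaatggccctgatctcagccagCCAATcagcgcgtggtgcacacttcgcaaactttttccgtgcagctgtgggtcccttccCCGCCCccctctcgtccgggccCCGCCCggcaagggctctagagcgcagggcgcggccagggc
Col6a3: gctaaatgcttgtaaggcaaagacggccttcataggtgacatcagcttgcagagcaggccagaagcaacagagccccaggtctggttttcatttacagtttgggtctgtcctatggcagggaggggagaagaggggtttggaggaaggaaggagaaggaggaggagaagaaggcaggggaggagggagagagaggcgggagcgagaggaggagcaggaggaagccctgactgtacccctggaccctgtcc
The window of Col1a2 held 2 GC boxes and 1 CCAAT box, as did that of Col5a3. That of Col3a1 held 1 match to TATAAA, whose first base lay 117 bases before the annotated start, and neither of the others. That of Col6a3 held none of the 3. Their GC contents were 62%, 62.8%, 35.2% and 57.2%, for Col1a2, Col5a3, Col3a1 and Col6a3. Of 33 start windows of 30 matched collagens, 19 held the GC box (57.6%, against 32.7% of 32851 windows of all genes), 10 held the CCAAT box (30.3% against 33.9%) and 5 held the TATA box (15.2% against 12.4%). A match describes letters only. Col1a1, Col2a1, Col5a2, Col9a3, Col12a1, Col14a1 and Col22a1 were not matched.

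**Figure D4:**
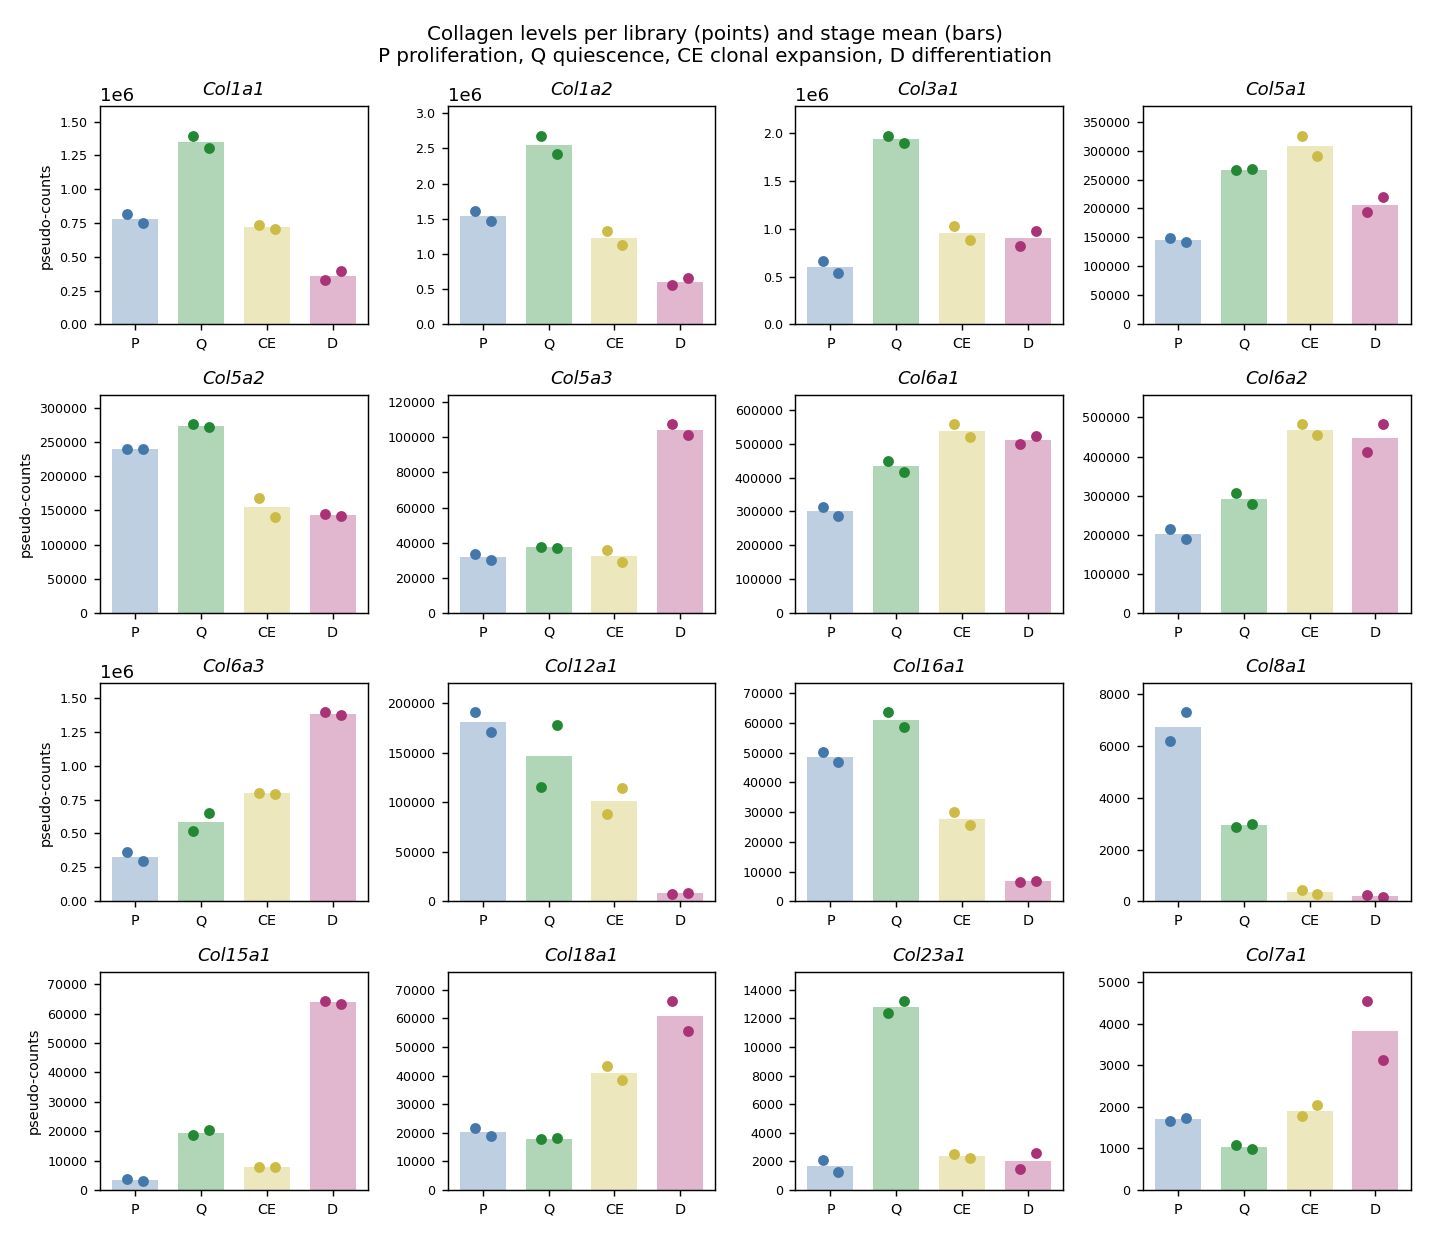
Pseudo-counts (y axes, from 0 and with a scale per gene) of 16 collagens in each library (points) with the stage mean (bars), at proliferation (P), quiescence (Q), clonal expansion (CE) and differentiation (D). Col1a1, Col1a2 and Col3a1 peak at quiescence, Col6a3, Col5a3 and Col15a1 at differentiation, and Col12a1 is far lower there than at the other stages.

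Type VI collagen is assembled from Col6a1, Col6a2 and one longer chain, and in each of these 3 genes both differentiated libraries were above both proliferating ones. Of the 6 type VI genes, 5 were higher at quiescence than at proliferation, and at clonal expansion against quiescence 2 were higher and 3 lower, where 11.9% of all genes were higher in the first and 34.4% called in each direction in the second. Col6a3 (gene ID 12835, chromosome 1, 92663435 to 92740548 in mm9), the long chain whose cleaved end is the fat cell product endotrophin, had 360488 and 296785 pseudo-counts in growing cells, 518581 and 647181 in quiescent cells, 799663 and 789655 during clonal expansion, and 1390768 and 1372354 in differentiated cells. The stages did not overlap, and Col6a3 at differentiation was higher than at quiescence (log2FC 1.25 ± 0.17, adjusted p = 8.85e-05) and than at clonal expansion (log2FC 0.80, adjusted p = 0.00158). Col6a1 (gene ID 12833, chromosome 10, 76171537 to 76188789 in mm9) had 313500.0 and 286049 pseudo-counts in growing cells, 450321 and 417418 in quiescent cells, 558206 and 519804 during clonal expansion, and 500573 and 523698 in differentiated cells. Col6a2 (gene ID 12834, chromosome 10, 76058501 to 76086149 in mm9) had 214604 and 190251 pseudo-counts in growing cells, 306212 and 278747 in quiescent cells, 483275 and 454465 during clonal expansion, and 412471 and 483242 in differentiated cells. Both rose at quiescence (log2FC 0.53 and 0.53), and Col6a2 rose again at clonal expansion (log2FC 0.68, adjusted p = 0.00162), after which the libraries of the last stages overlapped in both genes.

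The other type VI genes lie side by side on chromosome 9, and their chains can take the place of Col6a3. Col6a4 had 132 and 99.3 pseudo-counts in growing cells, 108 and 138 in quiescent cells, 40.2 and 39.2 during clonal expansion, and 13.4 and 16.5 in differentiated cells. Col6a5 had 15.3 and 12.7 pseudo-counts in growing cells, 106 and 103 in quiescent cells, 43.9 and 31.2 during clonal expansion, and 88.7 and 107 in differentiated cells. Col6a6 had 18.02 and 14.3 pseudo-counts in growing cells, 76.9 and 56.03 in quiescent cells, 15.4 and 19.8 during clonal expansion, and 22.8 and 41.4 in differentiated cells. All 3 had at most 138 pseudo-counts in any library. Col6a5 and Col6a6 rose at quiescence (log2FC 2.82 and 1.97) where Col6a4 was not called. At differentiation Col6a4 was lowest (log2FC -2.96, adjusted p = 7.02e-06 against quiescence) and the values of Col6a5 overlapped its quiescent ones. Col6a1 (0.20 with quantile normalization, 0.53 with only the 2 stages compared in the fit, 0.47 without proliferation 2, 0.48 without quiescence 1), Col6a2 (0.53 with only the 2 stages compared in the fit, 0.45 without proliferation 2, 0.46 without quiescence 1) and Col6a3 (0.53 with quantile normalization, 0.68 without proliferation 2) lost their calls in quiescence against proliferation. Col6a2 (0.14 with quantile normalization) and Col6a3 (0.22 with the same total per library, 0.26 with quantile normalization, 0.46 with only the 2 stages compared in the fit or without differentiation 1 or without differentiation 2, 0.30 without quiescence 1, 0.45 without clonal expansion 1, 0.47 without clonal expansion 2) lost their calls in clonal expansion against quiescence. Col6a5 (0.51 with quantile normalization) lost its call in differentiation against clonal expansion. Col6a2 (0.22 with quantile normalization) and Col6a6 (-0.84 without quiescence 1, -0.65 without differentiation 1) lost their calls in differentiation against quiescence.

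Fibril-associated collagens, which have interrupted helices and coat other fibrils, had 7 tested members. Of these, 5 were lower at clonal expansion than at quiescence (34.4% of all genes), and at differentiation against quiescence 6 were lower and 1 higher (32.9% and 33.4% of all genes). The falls in both comparisons include Col9a2 and Col19a1, which passed the filter on the mean through stages where they were high. Their falls from those stages lend no support of their own to these counts. Col12a1 (gene ID 12816, chromosome 9, 79446798 to 79566485 in mm9), a long chain found on fibrils under tension, had 190704 and 171348 pseudo-counts in growing cells, 115796 and 177676 in quiescent cells, 88031 and 114828 during clonal expansion, and 6988 and 8964 in differentiated cells. The first 3 stages ranged from 88031 to 190704 with overlaps between quiescence and proliferation, and both differentiated libraries were far below all of them (log2FC -3.67 ± 0.21, adjusted p = 1.63e-07 against clonal expansion). Col16a1 (gene ID 107581, chromosome 4, 129725084 to 129776521 in mm9), a minor fibril component, had 50137 and 46915 pseudo-counts in growing cells, 63482 and 58686 in quiescent cells, 29976 and 25539 during clonal expansion, and 6614 and 6955 in differentiated cells. It fell at clonal expansion (log2FC -1.14, adjusted p = 9.2e-06) and again at differentiation (log2FC -2.03, adjusted p = 1.02e-07), with no overlap between stages. Col20a1 was the one higher at differentiation, with 1481 and 1009 pseudo-counts in growing cells, 2409 and 2818 in quiescent cells, 2186 and 2606 during clonal expansion, and 8989 and 6309 in differentiated cells. Both differentiated libraries were above all others (log2FC 1.66 ± 0.21, adjusted p = 5.09e-05 against clonal expansion).

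The other tested members of this class had at most 456 pseudo-counts. Col14a1, which binds fibrils through decorin, had 38.3 and 40.5 pseudo-counts in growing cells, 203 and 198 in quiescent cells, 77.8 and 68.02 during clonal expansion, and 25.5 and 52.2 in differentiated cells. It rose at quiescence (log2FC 2.32, adjusted p = 0.000897) and fell at clonal expansion (log2FC -1.45, adjusted p = 0.00271). Col9a2 and Col9a3 encode chains of type IX, which decorates cartilage fibrils of type II. Col9a3 stayed between 196 and 456 in all libraries, and it was lower at clonal expansion than at quiescence (log2FC -0.71, adjusted p = 0.00924). Col9a2 had 19.7 and 18.1 pseudo-counts in growing cells, 72.2 and 49.03 in quiescent cells, 4.29 and 6.33 during clonal expansion, and 3.22 and 2.07 in differentiated cells. It peaked at quiescence and was lower at clonal expansion (log2FC -3.28, adjusted p = 5.6e-05). Col19a1, found in embryonic muscle and brain, had 103 and 104 pseudo-counts in growing cells, 27.2 and 28.6 in quiescent cells, 4.14 and 1.32 during clonal expansion, and 2.15 and 5.74 in differentiated cells. It fell at quiescence (log2FC -1.85, adjusted p = 0.024) and at clonal expansion (log2FC -3.07, adjusted p = 0.000344). Col9a2 passed the filter on the mean only through its quiescent libraries, and Col19a1 only through its proliferating and quiescent ones. Tests of those stages against others therefore lend no support of their own. Col20a1 (0.81 without proliferation 2), Col19a1 (-1.86 without proliferation 1, -1.85 without proliferation 2, -1.82 without quiescence 1, -1.89 without quiescence 2) and Col9a2 (1.67 without proliferation 1, 1.54 without proliferation 2, 1.33 without quiescence 1) lost their calls in quiescence against proliferation. Col14a1 (-0.77 with quantile normalization) and Col9a3 (-0.08 with quantile normalization, -0.59 without quiescence 1) lost their calls in clonal expansion against quiescence. Col14a1 (-0.88 without clonal expansion 1, -0.47 without differentiation 1) lost its call in differentiation against clonal expansion. Col9a3 (-0.52 without quiescence 1, -0.48 without differentiation 2) lost its call in differentiation against quiescence.

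The multiplexins, whose cleaved ends are the angiogenesis inhibitors restin and endostatin, were both highest in differentiated cells. Col15a1 (gene ID 12819, chromosome 4, 47220884 to 47326037 in mm9) had 3866 and 2951 pseudo-counts in growing cells, 18668 and 20400.3 in quiescent cells, 7695 and 7773 during clonal expansion, and 64371 and 63381 in differentiated cells. It rose at quiescence (log2FC 2.53 ± 0.13, adjusted p = 3.03e-06), fell at clonal expansion (log2FC -1.34, adjusted p = 9.2e-06) and rose at differentiation (log2FC 3.05, adjusted p = 2.06e-08), every stage apart from every other. Col18a1 (gene ID 12822, chromosome 10, 76514924 to 76629275 in mm9), a heparan sulfate proteoglycan of basement membranes, had 21533 and 19009 pseudo-counts in growing cells, 17623 and 17976 in quiescent cells, 43328 and 38579 during clonal expansion, and 66092 and 55600.5 in differentiated cells. It was not called between proliferation and quiescence and rose at clonal expansion (log2FC 1.20 ± 0.12, adjusted p = 1.19e-05) and at differentiation (log2FC 0.57, adjusted p = 0.00147). All 7 calls of these genes held under each of the 17 other settings.

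Short-chain collagens form hexagonal nets. Col8a1 (gene ID 12837, chromosome 16, 57624369 to 57754850 in mm9), a chain of vessel walls and of migrating cells, had 6178 and 7289 pseudo-counts in growing cells, 2857 and 3002 in quiescent cells, 431 and 297 during clonal expansion, and 249 and 188 in differentiated cells. It fell from proliferation to quiescence (log2FC -1.20 ± 0.20, adjusted p = 0.00241) and again at clonal expansion (log2FC -3.03 ± 0.20, adjusted p = 1.03e-06). Its partner Col8a2 had 58.9 and 54.5 pseudo-counts in growing cells, 110.4 and 62.5 in quiescent cells, 72.8 and 114 during clonal expansion, and 28.8 and 27.8 in differentiated cells. It was first called lower at the last step (log2FC -1.65, adjusted p = 0.00124). Col10a1, the collagen of hypertrophic cartilage, had 43.8 and 66.8 pseudo-counts in growing cells, 6.34 and 16.96 in quiescent cells, 6.20 and 6.65 during clonal expansion, and 35.8 and 39.97 in differentiated cells. It fell at quiescence (log2FC -2.26, adjusted p = 0.0061) and rose at differentiation (log2FC 2.39, adjusted p = 0.000805 against clonal expansion). Col10a1 passed the filter on the mean only through its proliferating and differentiated libraries, so these tests lend no support of their own. Col10a1 lies within the span of Nt5dc1 (1158 to 2096 pseudo-counts), and in these unstranded libraries reads of overlapping genes cannot be told apart. Col10a1 (-1.96 without proliferation 2) lost its call in quiescence against proliferation. Col8a1 (-0.45 without clonal expansion 1, -0.52 without differentiation 2) lost its call in differentiation against clonal expansion.

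Of the 4 transmembrane collagens, Col23a1 and Col17a1 were tested. Col23a1 (gene ID 237759, chromosome 11, 51103422 to 51397427 in mm9), which binds integrin and is shed from the surface, had 2116 and 1268 pseudo-counts in growing cells, 12410.5 and 13226 in quiescent cells, 2529.5 and 2236 during clonal expansion, and 1444 and 2564 in differentiated cells. It rose at quiescence (log2FC 2.97 ± 0.27, adjusted p = 0.000124) and fell at clonal expansion (log2FC -2.43 ± 0.27, adjusted p = 2.84e-05), and both quiescent libraries were at least 4.84 times any other. Col17a1, a hemidesmosome protein of skin, had 483 and 431 pseudo-counts in growing cells, 409 and 343 in quiescent cells, 121 and 116 during clonal expansion, and 78.00 and 90.5 in differentiated cells. It fell at clonal expansion (log2FC -1.65, adjusted p = 3.85e-05) and further at differentiation (log2FC -0.49, adjusted p = 0.0425). Col17a1 (-0.42 with the length trend removed, -0.49 with only the 2 stages compared in the fit, -0.46 without clonal expansion 1, -0.52 without clonal expansion 2, -0.38 without differentiation 1, -0.60 without differentiation 2) lost its call in differentiation against clonal expansion.

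Col7a1 and Col28a1 belong to no larger class and after the cocktail one rose and the other fell. Col7a1 (gene ID 12836, chromosome 9, 108855790 to 108886920 in mm9), which makes the anchoring fibrils under epithelium, had 1662 and 1740.2 pseudo-counts in growing cells, 1084 and 980.0 in quiescent cells, 1777 and 2046 during clonal expansion, and 4553 and 3119.7 in differentiated cells. It was higher at clonal expansion than at quiescence (log2FC 0.89 ± 0.17, adjusted p = 0.00112) and higher again at differentiation (log2FC 0.98, adjusted p = 0.000498). Col28a1, a collagen with von Willebrand factor domains found around peripheral nerves, had 2111 and 2379.8 pseudo-counts in growing cells, 2879.9 and 2213 in quiescent cells, 1577 and 1045 during clonal expansion, and 167 and 220.3 in differentiated cells. It fell at clonal expansion (log2FC -0.98, adjusted p = 0.00292) and at differentiation (log2FC -2.74 ± 0.22, adjusted p = 1.88e-06), where both libraries were below all others. Between proliferation and quiescence Col7a1 fell (log2FC -0.72, adjusted p = 0.0145). Col7a1 (-0.69 without proliferation 2) lost its call in quiescence against proliferation.

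Ratios between chains of one molecule were then taken within each library, which makes them independent of library scaling. They are per kilobase of the longest protein-coding GENCODE transcript. In type I molecules the Col1a1 chain outnumbers Col1a2. The message ratio of Col1a2 to Col1a1 was 2.20 and 2.16 in growing cells, 2.13 and 2.06 in quiescent cells, 2.00 and 1.78 during clonal expansion, and 1.90 and 1.87 in differentiated cells. Col1a2 was thus the higher of the pair in every library, and the ratio moved little. Col3a1 to Col1a1 was 0.87 and 0.77 in growing cells, 1.51 and 1.56 in quiescent cells, 1.49 and 1.33 during clonal expansion, and 2.68 and 2.67 in differentiated cells. It was lowest at proliferation and highest at differentiation, with quiescence just above clonal expansion.

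Within type V, Col5a1 to Col5a2 was 0.49 and 0.47 in growing cells, 0.76 and 0.78 in quiescent cells, 1.53 and 1.62 during clonal expansion, and 1.06 and 1.23 in differentiated cells. Col5a2 was the higher chain before the cocktail and Col5a1 after it. Col5a3 to Col5a2 was 0.15 and 0.13 in growing cells, 0.15 and 0.15 in quiescent cells, 0.23 and 0.22 during clonal expansion, and 0.81 and 0.78 in differentiated cells. Col5a3 thus came near the level of Col5a2 in the differentiated libraries.

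Within type VI, Col6a2 to Col6a1 was 0.60 and 0.59 in growing cells, 0.60 and 0.59 in quiescent cells, 0.76 and 0.77 during clonal expansion, and 0.73 and 0.81 in differentiated cells. It was higher after the cocktail than before it, with no overlap. Col6a3 to Col6a1 was 0.47 and 0.42 in growing cells, 0.47 and 0.63 in quiescent cells, 0.58 and 0.62 during clonal expansion, and 1.13 and 1.06 in differentiated cells. This ratio passed 1 only in the differentiated libraries, and quiescence 2 stood above quiescence 1 by more than the other pairs differed. Col6a3 has the longest transcript of the 3 (10106 bases, against 4100 and 4653). With a trend of the values with transcript length removed, Col6a3 was still called higher at differentiation than at quiescence (log2FC 1.29).

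For type VIII, Col8a1 to Col8a2 was 88.9 and 113 in growing cells, 22 and 40.7 in quiescent cells, 5.03 and 2.22 during clonal expansion, and 7.33 and 5.74 in differentiated cells. Col11a1 to Col11a2 was 4.12 and 4.29 in growing cells, 6.96 and 7.65 in quiescent cells, 2.53 and 1.82 during clonal expansion, and 1.21 and 1.72 in differentiated cells. Both ratios were lower after the cocktail than before it in every library. These ratios were not tested, and those of Col3a1 to Col1a1, Col5a3 to Col5a2 and Col11a1 to Col11a2 were chosen after their values had been seen.

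**Figure D5:**
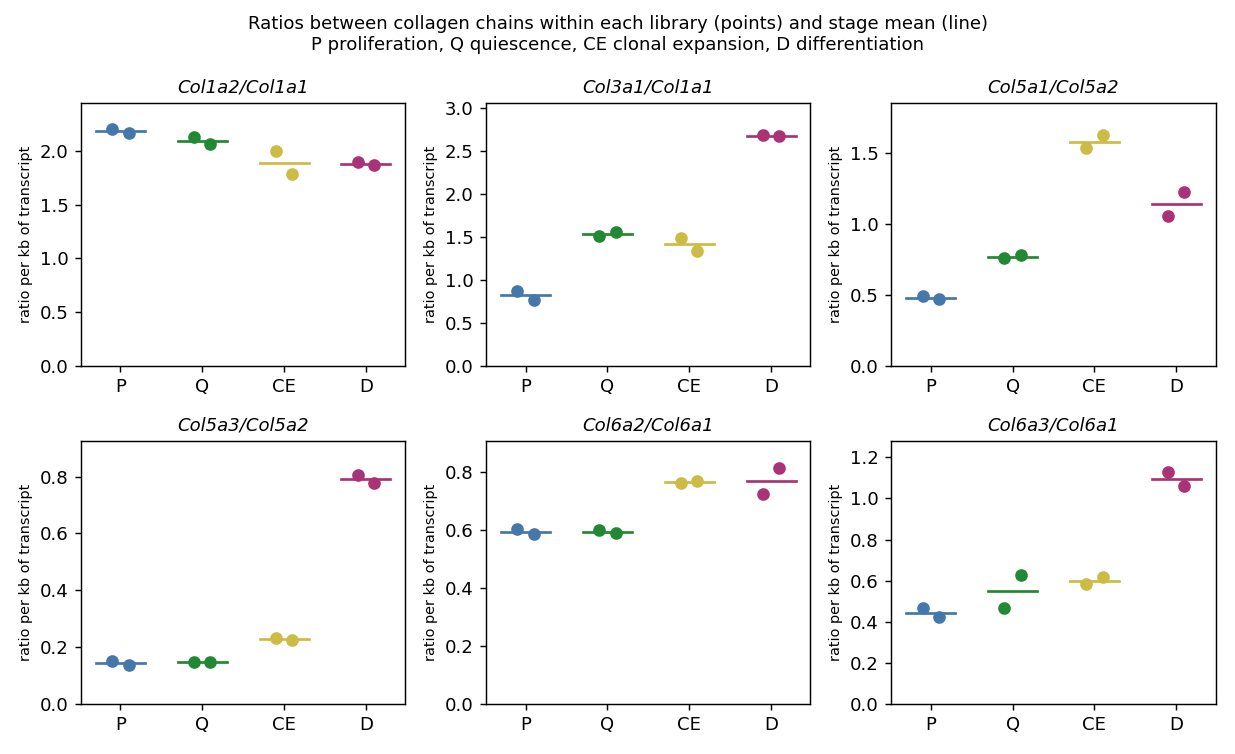
Ratio of pseudo-counts per kilobase (y axes, from 0) between pairs of collagen chains in each library (points) with the stage mean (lines), at proliferation (P), quiescence (Q), clonal expansion (CE) and differentiation (D). Col1a2 to Col1a1 stays between 1.78 and 2.20, while Col5a3 to Col5a2 and Col6a3 to Col6a1 are highest in the differentiated libraries.

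Per kilobase, the order of the most abundant collagens also turned over. At proliferation Col1a2 (287917 pseudo-counts per kilobase), Col1a1 (131948) and Col3a1 (108247) led, with Col6a1 at 73116 and Col6a3 at 32519. At differentiation Col3a1 (161589) and Col6a3 (136707) led, followed by Col6a1 (124911), Col1a2 (113705) and Col6a2 (96251), and Col1a1 was at 60471. Of the 32 tested collagens, 14 had their highest stage mean at quiescence, 7 at proliferation, 4 at clonal expansion and 7 at differentiation. Over all tested genes, 20.3%, 16%, 30.5% and 33.2% peaked at these stages in turn. The lowest stage was differentiation for 14 collagens (43.8%, against 32.5% of all tested genes) and proliferation for 13 (40.6%, against 16.6%).

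The 5 collagens below the filter had few pseudo-counts in any library. Col22a1, found at muscle and tendon junctions, had 13.7 and 14.8 at proliferation and less than 1 at differentiation. Col9a1 ranged up to 18.3 and was at 0 at clonal expansion, Col24a1 ranged from 1.45 to 12, Col25a1 from 1.83 to 9.36, and Col13a1 was at or below 1.23. No comparison was made for them.

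Some collagens are next to each other in the genome with no other row of the table between them, and such pairs were called together in some comparisons and not in others. Col3a1 and Col5a2 lie 24625 bases apart on chromosome 1. At quiescence against proliferation Col3a1 rose (log2FC 1.69) where Col5a2 was not called, and both fell at clonal expansion (log2FC -1.02 and -0.83) and were lower at differentiation than at quiescence (log2FC -1.11 and -0.94). Col6a2 and Col6a1 lie 85388 bases apart on chromosome 10 and were both higher at quiescence, and at clonal expansion Col6a2 was called higher and Col6a1 was not called. Col6a6, Col6a5 and Col6a4 follow each other on chromosome 9 with gaps of 27985 and 29675 bases. All 3 fell at clonal expansion (log2FC -1.85, -1.47 and -1.60), and at differentiation against clonal expansion Col6a5 was higher (log2FC 1.37), Col6a4 lower (log2FC -1.36) and Col6a6 not called. Col9a1 and Col19a1 lie 4945 bases apart on chromosome 1, and Col9a1 was not tested. The differences between neighbours were not tested.

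The enzymes and chaperones that make, fold and crosslink collagen were read from a list of which 39 symbols were in the table and 36 were tested. At quiescence against proliferation 12 were higher and 4 lower, beside 11.9% and 11.8% of all genes. Without proliferation 2 or with no filter 5 were higher. Adamts2, which trims the front end of procollagen, rose from 10754 ± 977 to 25802 ± 1981 (log2FC 1.26, adjusted p = 0.000599). Sparc, which binds collagen, rose from 268800.0 ± 22031 to 501734 ± 88306 (log2FC 0.89, adjusted p = 0.00353), and Lox, which starts crosslinks, rose as well (log2FC 0.82). With no filter on low values Sparc and Lox were not called. Leprel1, a prolyl 3-hydroxylase, Loxl4 and Tll1, a tolloid protease that trims the other end, were lower (log2FC -1.52, -0.9972 and -0.94).

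At clonal expansion against quiescence, when 20 collagens fell, 16 of 36 were higher and 7 lower, beside 34.4% of all genes in each direction. Other scalings changed that split to 10 and 9 (equal library totals) and, with quantile normalization, to 10 and 9. Tll1 rose from 681 ± 98.3 to 9312 ± 655 (log2FC 3.78, adjusted p = 8.06e-08). P4ha2, a catalytic subunit of prolyl 4-hydroxylase, rose from 14754 ± 1368 to 45490.0 ± 4255 (log2FC 1.62, adjusted p = 3.02e-05), and P4hb, its partner subunit, which also helps other proteins fold, rose from 181501 ± 11405 to 479888 ± 13740.1 (log2FC 1.40, adjusted p = 5.26e-06). Creb3l1, a transcription factor that drives collagen genes, fell from 30691 ± 1845 to 10550.5 ± 486 (log2FC -1.54, adjusted p = 9.08e-07), and the prolyl 3-hydroxylases Leprel1 and Leprel2 fell (log2FC -1.12 and -0.88).

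At differentiation against clonal expansion 27 of 36 were lower and 5 higher, beside 36.2% and 36.8% of all genes, with a median log2FC of -0.90. Tll1 fell from 9312 ± 655 to 46.3 ± 2.04 (log2FC -7.62, adjusted p = 4.93e-10), P4ha3 fell from 7014 ± 609 to 342 ± 44.02 (log2FC -4.36, adjusted p = 2.89e-09) and Loxl3, a lysyl oxidase, fell from 43731 ± 4548 to 3412 ± 303 (log2FC -3.68, adjusted p = 2.8e-09). Loxl2 rose from 307 ± 58.8 to 1164 ± 242 (log2FC 1.92, adjusted p = 1.31e-05), followed by Pycr1, which makes proline (log2FC 1.09), and the lysyl hydroxylase Plod1 (log2FC 1.09). Against quiescence, 22 were lower and 7 higher, beside 32.9% and 33.4% of all genes. The 7 became 4 without quiescence 2 and with libraries put on the same total. Loxl2, Plod1 and P4ha1 were the largest of these rises (log2FC 1.96, 1.61 and 0.92), and P4ha3, Tll1 and Pcolce2, an enhancer of procollagen trimming, the largest falls (log2FC -4.33, -3.84 and -3.15).

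Collagen receptors, collagenases and their inhibitors formed a list of 25 genes in the table, 21 of them tested. At quiescence 8 were higher and 1 lower than at proliferation, beside 11.9% and 11.8% of all genes. With no filter 5 were higher, and 2 were lower without proliferation 1 and 3 without quiescence 1. Fap, a surface protease of activated fibroblasts, rose from 44.2 ± 15.9 to 382 ± 144 (log2FC 3.07, adjusted p = 0.000424), and Mmp2, a gelatinase, rose from 101425 ± 27238 to 337781 ± 13624 (log2FC 1.76, adjusted p = 0.000191). Antxr1, a receptor that binds type VI collagen, rose as well (log2FC 1.04, not called with no filter), and Timp3, an inhibitor of metalloproteinases, fell (log2FC -0.82).

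At clonal expansion against quiescence 12 of 21 were lower and 2 higher, beside 34.4% of all genes in each direction. The collagenase Mmp13 fell from 224 ± 81.3 to 32.9 ± 11.4 (log2FC -2.73, adjusted p = 4.72e-05), Itga11, the integrin chain that binds fibrillar collagen on fibroblasts, fell from 4522 ± 224 to 804 ± 91.5 (log2FC -2.49, adjusted p = 2.54e-07), and Mmp16 fell from 108 ± 45.4 to 18.6 ± 5.58 (log2FC -2.43, adjusted p = 0.00109). Timp1 rose from 9637 ± 1887 to 37016 ± 2767 (log2FC 1.95, adjusted p = 5.71e-06) and Timp3 rose less (log2FC 0.38). Timp3 (0.14 with the same total per library, 0.18 with quantile normalization, 0.35 without quiescence 1, 0.26 without clonal expansion 2) lost its call in clonal expansion against quiescence.

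At differentiation, 13 were lower and 3 higher than at clonal expansion, beside 36.2% and 36.8% of all genes. Against quiescence 18 were lower and 0 higher by limma (0 at an unadjusted p under 0.05 too), beside 32.9% and 33.4% of all genes. Timp3 fell from 9239 ± 1073 to 259 ± 7.94 (log2FC -5.15, adjusted p = 1.12e-09), Timp1 fell from 37016 ± 2767 to 1371 ± 42.5 (log2FC -4.75, adjusted p = 8.97e-09) and the gelatinase Mmp9 fell from 2362 ± 190.4 to 250.4 ± 81.5 (log2FC -3.27, adjusted p = 6.12e-07). Mmp13, Fap and Itga1 were the 3 that rose against clonal expansion (log2FC 2.25, 1.27 and 0.50). Of these, Fap was not called without clonal expansion 2 (0.86), without differentiation 2 (1.16), with quantile normalization (0.47) or with no filter (1.27), and Itga1 without clonal expansion 1 (0.44), without differentiation 1 (0.36) or with no filter (0.50). Against quiescence the largest falls were in Mmp9, Timp3 and Itga11 (log2FC -4.95, -4.77 and -3.01).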

How the data were processed

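RNA-seq was done on 8 libraries of total RNA, 2 per stage (unstranded TruSeq libraries, single reads of 100 nt, per the labels). The authors deposited 1 signal value for every gene and library, edgeR pseudo-counts scaled by relative log expression (RLE), as the table's name states. CASAVA 1.8.2, edgeR and the build mm9 are named in the submitters' processing notes. The aligner and the gene models are not given in the sources used here.

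The 14647 of 22798 genes that averaged at least 10 across libraries were fitted with limma 3.58.1 in R 4.3.3, on log2(value + 1) over all 4 stages with a mean-variance trend (4 residual degrees of freedom, 9.78 with those borrowed), two-sided, with Benjamini-Hochberg adjustment over all genes tested and a threshold of 0.05. Python 3.11.15 with pandas 2.3.3 and matplotlib 3.10.9 did the rest. The fit was also run on simulated data with independent noise for each gene. Such data lack shifts that many collagens share within a library, so that run cannot show how the fit deals with them. Transcript lengths are those of the longest protein-coding GENCODE M21 transcript, or of the longest transcript where none is protein-coding. They were known for all 37 collagens and 14479 of the genes tested.

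The collagens, the lists and the tests were chosen with earlier results of these data known. Printed in full were the abundant collagens and those with a called change of at least 2-fold, fold changes only where called, and from each list up to 3 genes per direction with the largest change. The 17 alternative settings were another pseudocount, other filters, other scalings, removal of a length trend, a replicate block, fits of 2 stages, no variance trend, and leaving out each library. Same-numbered libraries deviated together with r from 0.013 to 0.354 over the 6 pairs of stages. The 2 pairs above 0.1 were quiescence with clonal expansion (0.354) and quiescence with differentiation (0.134), which are both compared here. The labels do not say that the numbers pair the libraries, so the main fit did not pair them. A shared effect of the experiment number was allowed for only in the replicate block.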

Additional observations from a re-analysis of the deposited data

How the results depend on the processing

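Of the 98 collagen calls, 61 held under all 17 settings, and 1, the rise of Col1a2 at quiescence, changed sign or went to 0 (0 with quantile normalization). The largest loss, 31 of 98, came with no filter on low values (the cause was not tested), and none was lost with a pseudocount of 5, with a replicate block or without a variance trend. With the replicate block all 98 collagen calls held and 2 were gained: 18 collagens were higher and 4 lower at quiescence against proliferation, and 5 higher and 21 lower at clonal expansion against quiescence. In the list of biosynthesis genes, the rise of Mia3 at clonal expansion became -0.010851 with quantile normalization.

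With no filter limma called 8 collagens higher and 0 lower (5 at an unadjusted p under 0.05) at quiescence against proliferation, 3 higher at clonal expansion and 7 lower at differentiation against it; biosynthesis genes gave 5 higher at quiescence, and receptor and turnover genes 5 higher and 2 lower at quiescence, 1 higher at clonal expansion and 1 higher at differentiation against it. A minimum mean of 50 left 2 collagens lower at quiescence. The same total gave 3 collagens, 10 biosynthesis genes and 1 receptor or turnover gene higher at clonal expansion, and 4 biosynthesis genes higher at differentiation against quiescence; quantile normalization gave 3 and 10 of the first 2. With the length trend removed, 2 receptor and turnover genes were lower at quiescence.

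Leaving out each library gave 10 to 18 collagens higher and 1 to 4 lower at quiescence against proliferation, and 3 to 5 higher at clonal expansion. For biosynthesis genes it gave 5 to 15 higher at quiescence and 4 to 8 higher at differentiation against quiescence. For receptor and turnover genes it gave 1 to 3 lower at quiescence, 1 to 3 higher at clonal expansion, and 2 to 3 higher at differentiation against clonal expansion. With 2 libraries per stage the precision was limited, and the smallest called collagen change was 0.37 on the log2 scale.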
